A study of Mus musculus with 4 samples.

Results

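The genes described here are 9 markers of white fat cells, Adipoq, Lep, Retn, Cfd, Plin1, Plin4, Cidec, Fabp4 and Car3, followed in RNA of small intestine from Cyp3a knockout and wild-type mice. They were chosen by name, as genes typical of the fat in the mesentery, the sheet of tissue that holds the gut. Earlier results of these data were known when they were chosen. All 9 had a probe on the array, with 11 probes in all, out of 21153 genes with a probe, and 7 of the 9 were bright enough to be tested among 14392 genes. The knockout group held 2 arrays of Cyp3a-/- mice, which lack a cluster of cytochrome P450 genes that oxidise drugs and steroids. The wild-type group held 2 arrays of control mice. All 4 arrays were 1-colour Agilent arrays of Cy3-labelled RNA, and the 2 experiments used different animals. Strain, sex, age, diet, the segment of small intestine and whether an array pooled animals are not given in the sources used here. A p-value or standard error of a difference here starts from a gene's spread between the 2 arrays of each genotype. The fit then draws that spread toward the one typical of genes at similar levels. With so few arrays, the values given here are imprecise.

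White fat cells store triglyceride in a single large lipid droplet whose surface is coated by perilipins and enlarged by Cidec, and they secrete hormones that act on appetite and insulin response. Fat cells line the mesenteric border of the intestine, outside the muscle coat, so a piece of whole gut can contain some of them. Several of these genes are also active elsewhere. Fabp4 is found in macrophages and capillary endothelium, Car3 in skeletal muscle and liver, and Cidec in liver. In bulk tissue, fewer cells of a type and less RNA per cell cannot be told apart.

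A level below is the log2 of a signal after that array's 75th percentile is subtracted on the log2 scale, and a probe counts as detected where the scanner software marked it well above background. That percentile stood at a signal of 322 in knockout 1 and 175 in knockout 2, against 226 in wild type 1 and 356 in wild type 2. The lowest level of any probe well above background came to -4.84 and -4.02 in knockout 1 and 2, against -4.29 and -5.16 in wild type 1 and 2. No spot was saturated. On the deleted genes the labels were borne out: Cyp3a11, Cyp3a16, Cyp3a25, Cyp3a41b, Cyp3a57 and Cyp3a59 went undetected in both knockouts, with bounds from at least 27.2-fold to at least 920-fold lower than in wild type. These folds set the wild-type mean against the higher of each knockout signal and the lowest detected level of its array. The correlation across genes was 0.948 between the 2 knockout arrays and 0.979 between the 2 wild-type arrays, as a description. Knockout 1 and wild type 2 lay on the same slide, and knockout 2 and wild type 1 each lay on a slide of its own.

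No tested adipocyte gene had both knockout arrays on one side of both wild-type arrays. Of the 7 tested, 6 were lowest in knockout 1 and highest in knockout 2, with both wild-type arrays between them, and Cidec had the opposite order. Among these 6, Adipoq was not detected in knockout 1 or wild type 1, so the order of those 2 arrays was not measured for it. Across all 14392 genes the first order was found in 16.6% and the opposite one in 16.3%. Relative to the wild-type mean, the median of the 7 genes was -0.92 in knockout 1 and 0.98 in knockout 2, while all genes had a median of 0.03 and 0.04. The difference between the 2 knockout arrays had a median size of 2.26 for the 7 genes, against 0.25 between the 2 wild-type arrays. For all genes these median sizes were 0.45 and 0.30. The range over the 4 arrays had a median of 2.26 for the 7 genes and 0.66 for all genes. These are descriptions of 4 arrays and carry no test.

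**Figure D1:**
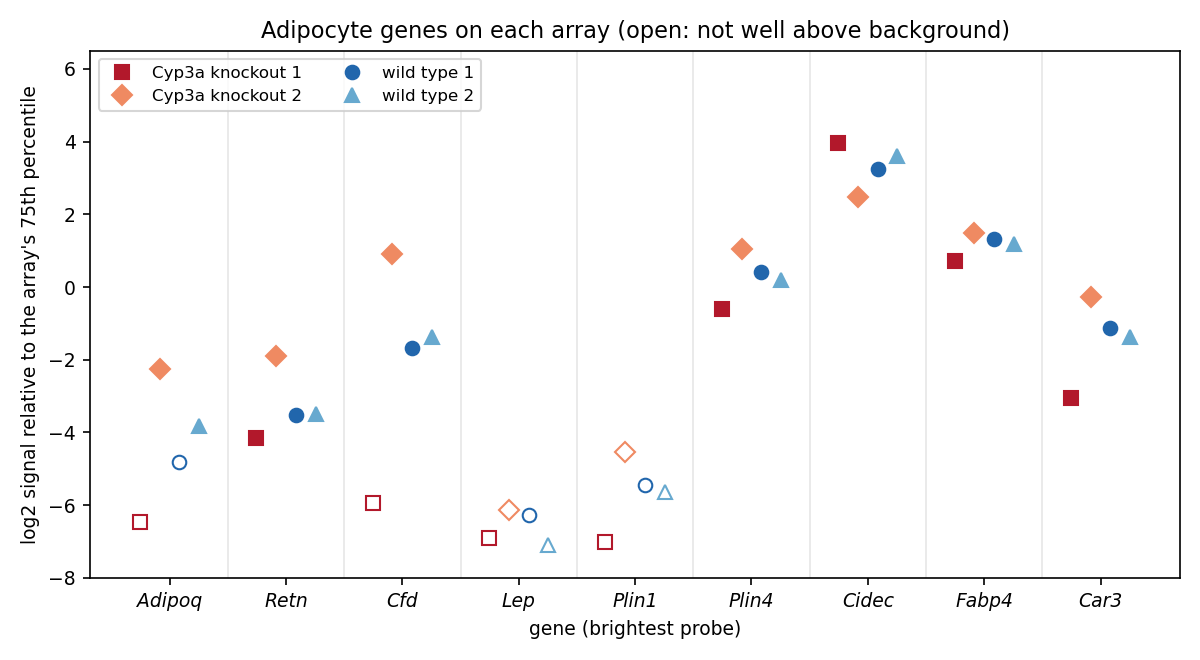
Level of each adipocyte gene on each of the 4 arrays (vertical axis, log2 signal relative to the array's 75th percentile; horizontal axis, gene). Each point is 1 array, and open points were not well above background. Knockout 1 lies lowest and knockout 2 highest for Retn, Cfd, Plin4, Fabp4 and Car3, and the reverse for Cidec. Knockout 2 lies highest for Adipoq, and values at open points have no measured order among themselves.

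Among the secreted products, Cfd varied most. Cfd encodes adipsin, complement factor D, a serine protease released by fat cells. Its level was -5.94 in knockout 1, where the probe was not well above background, and 0.91 in knockout 2, against -1.67 and -1.39 in wild type 1 and 2. The signal behind these levels, before scaling, came to 5.25 and 330 in knockout 1 and 2, against 71.1 and 136 in wild type 1 and 2. Knockout 2 was thus at least 53.8-fold higher than knockout 1, a bound that uses the lowest detected level of knockout 1. Knockout 1 lay at least 9.02-fold below wild type 1 and at least 10.9-fold below wild type 2 by the same bound. Only 0.139% of all tested genes had a wider range over the 4 arrays than Cfd.

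Adipoq encodes adiponectin, a hormone made almost entirely by fat cells. It was detected on 1 array of each genotype. Its level was -6.47 in knockout 1 and -2.24 in knockout 2, against -4.80 and -3.83 in wild type 1 and 2, and the probe was not well above background in knockout 1 and wild type 1. Knockout 2 was at least 6.04-fold higher than knockout 1. As measured, knockout 1 lay below and knockout 2 above both wild-type arrays, so the genotypes overlapped. A range wider than that of Adipoq was found in 0.396% of genes. For Cfd and Adipoq the range, mean and SD include values of undetected probes as the scanner gave them.

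Retn encodes resistin, which in mice is a hormone of fat cells. Its brighter probe had levels of -4.16 and -1.90 in knockout 1 and 2, against -3.51 and -3.50 in wild type 1 and 2. The wild-type arrays were almost equal, and the knockout arrays lay on either side of them. The second Retn probe gave -5.40 and -1.61 in knockout 1 and 2, against -3.63 and -3.76 in wild type 1 and 2. On that probe knockout 1 was not well above background, and knockout 2 was at least 9.37-fold higher than knockout 1. Both probes therefore placed the arrays with knockout 1 lowest and knockout 2 highest.

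Lep encodes leptin, the hormone by which fat cells report energy stores to the brain. Its probe, spotted repeatedly on the array, was not well above background on any array. Its unscaled signal came to 2.69 and 2.47 in knockout 1 and 2, against 2.89 and 2.59 in wild type 1 and 2. No fold is given for it, because all 4 values lay under the lowest detected level of their array.

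The promoter windows of Adipoq and Cfd are shown because these are the 2 members with the widest ranges, and those of Cidec because its arrays ran in the other order. They are RefSeq sequences of build GRCm38.p6 around a start of the gene, written 5′ to 3′ on the gene's strand. Capitals mark a match to the C/EBP-like motif TTGCNNAA. The windows lie at chr16:23146286-23146585 (plus strand), chr10:79890603-79890902 (plus strand), and, for Cidec, chr6:113435711-113436010 and chr6:113434715-113435014 (minus strand).
Adipoq: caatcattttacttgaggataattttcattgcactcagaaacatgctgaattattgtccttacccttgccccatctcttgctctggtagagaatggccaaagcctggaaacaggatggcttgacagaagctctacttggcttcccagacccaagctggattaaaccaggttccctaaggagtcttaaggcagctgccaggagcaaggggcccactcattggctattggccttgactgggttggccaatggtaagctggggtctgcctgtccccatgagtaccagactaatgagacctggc
Cfd: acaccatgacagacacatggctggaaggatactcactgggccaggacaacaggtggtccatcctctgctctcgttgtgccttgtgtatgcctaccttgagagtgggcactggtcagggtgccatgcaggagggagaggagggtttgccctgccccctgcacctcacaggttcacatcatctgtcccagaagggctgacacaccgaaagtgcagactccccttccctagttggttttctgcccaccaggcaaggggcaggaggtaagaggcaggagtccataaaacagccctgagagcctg
Cidec, window 1: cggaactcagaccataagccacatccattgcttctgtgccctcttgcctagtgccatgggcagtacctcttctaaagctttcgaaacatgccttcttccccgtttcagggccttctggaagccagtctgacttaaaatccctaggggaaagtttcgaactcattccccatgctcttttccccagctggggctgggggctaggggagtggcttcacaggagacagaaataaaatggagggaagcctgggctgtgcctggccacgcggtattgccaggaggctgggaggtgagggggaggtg
Cidec, window 2: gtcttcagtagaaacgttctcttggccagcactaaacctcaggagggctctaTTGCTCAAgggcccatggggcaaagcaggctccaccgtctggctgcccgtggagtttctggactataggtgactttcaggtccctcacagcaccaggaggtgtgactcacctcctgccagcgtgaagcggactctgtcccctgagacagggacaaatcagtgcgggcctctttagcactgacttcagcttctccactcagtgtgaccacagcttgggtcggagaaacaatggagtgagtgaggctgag
Windows were found for 7 members, and Fabp4 and Car3 are named only. Both strands were searched for 4 motifs: the nuclear receptor half-site AGGTCA, a direct repeat of half-sites spaced by 1 base, the kind that PPAR with RXR binds, TTGCNNAA, and the TATA box TATAAA. The direct repeat allows letters that the half-site fixes, so matches of the 2 can overlap. Taking 1 window per gene, TTGCNNAA was present in 2 of the 7 members, Plin1 and Lep, and in 10.8% of 27025 promoters. The other 3 motifs were in 0 of the 7, while AGGTCA was in 16.0% of all promoters, the direct repeat in 0.381% and TATAAA in 14.2%. The second window of Cidec held 1 match to TTGCNNAA. A match is a description of letters and not a binding site.

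The lipid droplet proteins split into 3 patterns. Plin4 encodes perilipin 4, a coat protein of nascent droplets. Its level came to -0.62 and 1.05 in knockout 1 and 2, against 0.41 and 0.20 in wild type 1 and 2, and it was detected on all 4 arrays. After scaling by the 75th percentile, knockout 2 was 3.18-fold higher than knockout 1, and the wild-type arrays lay between them.

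Plin1 encodes perilipin 1, the coat protein that controls access of lipases to the droplet of a mature fat cell. Its probe was not well above background on any array, with levels of -7.01 and -4.53 in knockout 1 and 2, against -5.45 and -5.65 in wild type 1 and 2. Its unscaled signal came to 2.49 and 7.59 in knockout 1 and 2, against 5.15 and 7.08 in wild type 1 and 2. It was not tested, and no fold is given.

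Cidec encodes a protein that joins small droplets into larger ones. Its brighter probe had levels of 3.95 and 2.47 in knockout 1 and 2, against 3.26 and 3.60 in wild type 1 and 2. Knockout 1 was highest and, after scaling, 2.79-fold above knockout 2. The second Cidec probe gave -0.41 and -3.01 in knockout 1 and 2, against -1.57 and -1.13 in wild type 1 and 2. There knockout 1 was 6.03-fold above knockout 2 after scaling, so both probes ran opposite to the other tested adipocyte genes.

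The remaining members act inside the cell. Fabp4 encodes the fatty acid carrier aP2. Its level came to 0.71 and 1.48 in knockout 1 and 2, against 1.33 and 1.18 in wild type 1 and 2. Before scaling its signal came to 529 and 489 in knockout 1 and 2, against 566 and 807 in wild type 1 and 2. Knockout 2 was thus its lowest array before scaling and its highest after scaling. Fabp4 had the narrowest range of the 7 tested genes, and 40.6% of all genes had a wider one. Car3 encodes carbonic anhydrase 3, an abundant protein of fat cells and of slow muscle fibres. Its level came to -3.05 and -0.28 in knockout 1 and 2, against -1.13 and -1.38 in wild type 1 and 2. After scaling, Car3 was 6.84-fold higher in knockout 2 than in knockout 1, and both arrays lay outside the wild-type values.

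**Figure D2:**
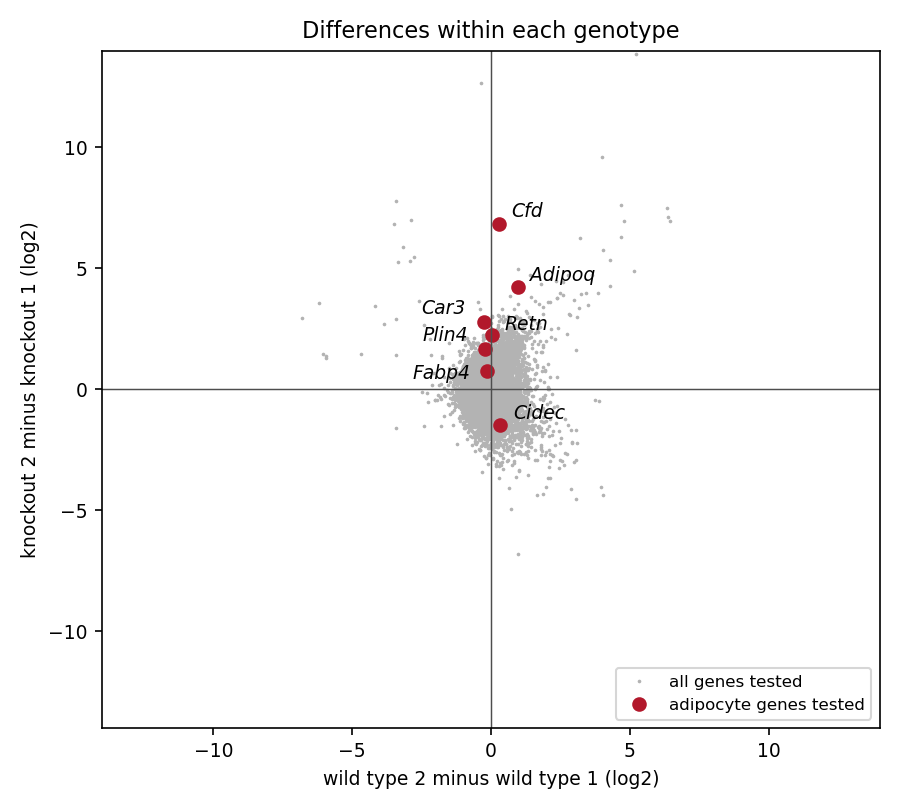
Difference between the 2 knockout arrays (vertical axis, log2) against the difference between the 2 wild-type arrays (horizontal axis, log2) for all 14392 genes tested, each a grey point, with the 7 tested adipocyte genes in red. Cfd lies at 6.85 on the knockout axis and 0.28 on the wild-type axis, and Cidec lies at -1.48 and 0.34. The Cfd and Adipoq differences on the knockout axis use the undetected value of knockout 1. That of Adipoq on the wild-type axis uses the undetected value of wild type 1.

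Repeated spots give the scale of the error of measurement within an array. Among probes spotted 5 or more times, the median SD of log2 signal between spots of an array was 0.05 to 0.06 for levels above 0. It was 0.11 to 0.16 for levels between -4 and -2, and 0.27 to 0.31 for levels below -4. Apart from the Lep probe, the members' probes were single spots, so no spot error of their own can be given.

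Between genotypes, limma called 0 of the 7 tested members at an adjusted p of 0.05, while 0.0417% of all genes passed, which were the 6 Cyp3a genes. At an unadjusted p under 0.05 limma gave 0 members, against 0.438% of all genes. Differences are knockout minus wild type on the log2 scale, and 6 of the 7 were negative. Their median was -0.16, against 0.04 for all genes. In 0 of the 7 were the genotypes without overlap, which was so for 14.7% of all genes (8.66% with both knockout arrays above and 6.08% with both below).

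Cfd averaged -2.51 ± 4.85 in knockout and -1.53 ± 0.20 in wild type (SD, n = 2 each), and limma gave a difference of -0.99 with a standard error (SE) of 1.98 and an adjusted p of 1.00. Adipoq averaged -4.36 ± 2.99 in knockout and -4.32 ± 0.69 in wild type, a difference of -0.04 (SE 1.32). Car3 averaged -1.66 ± 1.96 in knockout and -1.25 ± 0.18 in wild type, a difference of -0.41 (SE 0.85). Retn averaged -3.03 ± 1.60 in knockout and -3.51 ± 0.01 in wild type, and its difference of 0.47 (SE 0.75) was the single positive one. For Plin4, Fabp4 and Cidec the differences were -0.09 (SE 0.55), -0.16 (SE 0.34) and -0.22 (SE 0.51). In each of these genes the knockout SD exceeded the wild-type SD, and the adjusted p from limma was 1.00. With standard errors of this size, a p that misses the threshold does not show that the genotypes were alike.

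The sign of the difference turned with the knockout array used. Without knockout 1 the median difference was 0.98, and the difference of Cfd was 2.44. Without knockout 2 the median was -0.92, and the differences of Cfd and Car3 were -4.41 and -1.80. The Cfd value of that fit rests on an undetected probe in knockout 1, so its size is not a measured one. The bounds of at least 9.02-fold and at least 10.9-fold given above are what the probe shows. In both fits the lone knockout array is assumed to vary like the wild-type arrays, so only sizes are given. Without wild type 1 or wild type 2 the median was -0.28 or -0.19. Within the slide that held both genotypes, which has knockout 1 and not knockout 2, the median difference was -0.82 against 0.08 for all genes. There Car3 differed by -1.67, Plin4 by -0.82, Retn by -0.67, Fabp4 by -0.47 and Cidec by 0.35. Cfd and Adipoq were not detected in knockout 1, so for them that slide gives only bounds: Cfd was at least 10.9-fold lower in knockout 1 than in wild type 2, and Adipoq at least 2.01-fold.

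**Figure D3:**
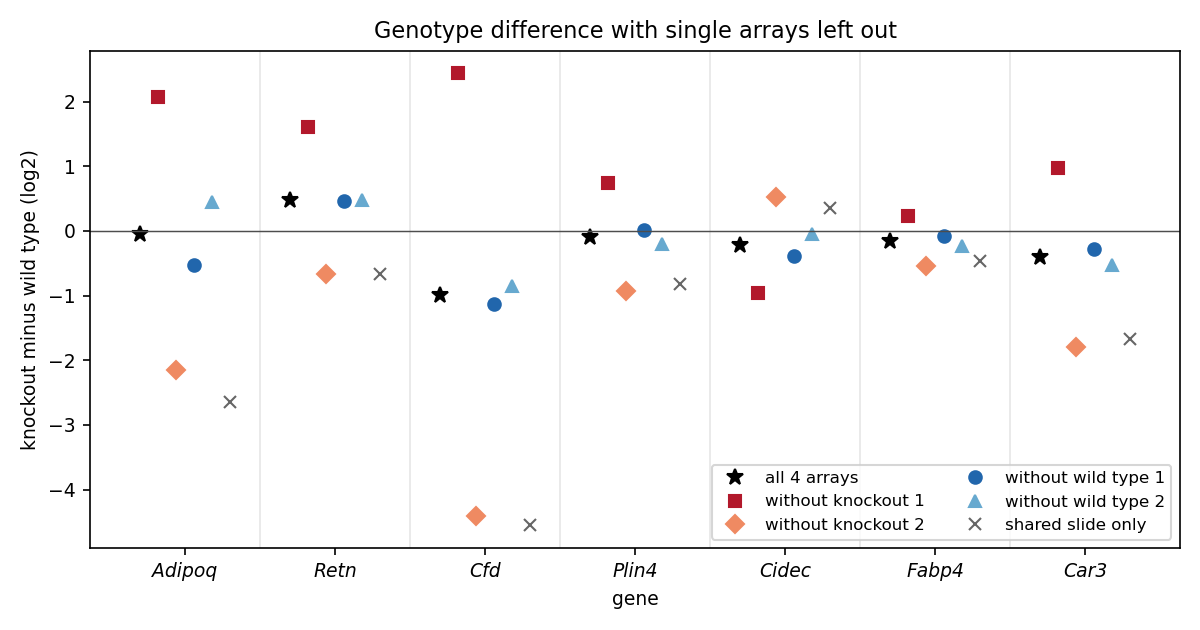
Knockout minus wild-type difference (vertical axis, log2) of each tested adipocyte gene (horizontal axis) with all 4 arrays, without each array in turn, and within the slide that holds both genotypes. Without knockout 1 the differences are positive for every gene but Cidec, and without knockout 2 they are negative for every gene but Cidec. Points for Cfd and Adipoq that include knockout 1 use its undetected value, as do Adipoq points that include wild type 1.

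Other genes of fat cells were described from 6 lists, together with relatives of the members. The lists were chosen with earlier results of these data known and have no test of their own. Of 89 different genes tested in these 7 lists limma called 0, and 1 had an unadjusted p under 0.05. That gene was Cebpd, an early regulator of fat cell formation that is active in many tissues, at 2.83 and 2.08 in knockout 1 and 2, against 1.25 and 1.60 in wild type 1 and 2, and a difference of 1.03 (SE 0.35, adjusted p = 1.00 from limma). In 25.8% of the 89 genes knockout 1 was lowest and knockout 2 highest, against 16.6% of all genes, and in 20.2% the order was the opposite, against 16.3%.

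Lipid droplet and lipolysis genes did not follow the members. Of 13 tested genes, 2 had knockout 1 lowest and knockout 2 highest and 6 had the opposite order, as Cidec did. Set against the wild-type mean, their median stood at 0.29 in knockout 1 and -0.22 in knockout 2. Lipe, the hormone-sensitive lipase, had levels of -1.58 and -2.91 in knockout 1 and 2, against -1.96 and -2.54 in wild type 1 and 2. Abhd5, the co-activator of adipose triglyceride lipase, had -0.00 and -1.22 in knockout, against -1.10 and -0.39 in wild type. Mgll, the monoglyceride lipase, ran with the members, at 0.87 and 2.07 in knockout, against 1.57 and 1.89 in wild type. Hilpda, an inhibitor of triglyceride lipase, was at -0.57 and 1.44 in knockout, against 0.99 and 1.74 in wild type.

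Genes of fatty acid synthesis were closer to the members. Of 8 tested, 4 had knockout 1 lowest and knockout 2 highest and 0 had the opposite order, with medians of -0.73 and 0.31 in knockout 1 and 2. Scd1, a desaturase of stearic acid, had levels of -2.91 and -1.29 in knockout 1 and 2, against -1.79 and -1.65 in wild type 1 and 2. Fasn, the fatty acid synthase, had -3.27 and -2.08 in knockout, against -2.49 and -2.67 in wild type. Thrsp, a lipogenic regulator, had -3.54 and -1.97 in knockout, against -1.45 and -2.60 in wild type, so knockout 2 was not its highest array. Scd2 was at 1.63 and 3.49 in knockout, against 2.42 and 3.54 in wild type.

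White adipocyte membrane and metabolic genes were mixed: of 21 tested, 6 had the members' order and 7 the opposite. Adig, which encodes the small fat cell protein adipogenin, had levels of -4.74 in knockout 1, not well above background, and -2.88 in knockout 2, against -4.06 and -3.91 in wild type 1 and 2. Cd36, a fatty acid transporter also abundant in enterocytes, ran the other way, at -0.66 and -2.72 in knockout, against -2.44 and -2.23 in wild type. Dgat2, an enzyme that completes triglyceride, was at 4.80 and 2.68 in knockout, against 3.71 and 4.34 in wild type. Pck1, an enzyme of glucose and glycerol synthesis, was widest between the wild-type arrays, at 0.26 and 0.14 in knockout, against 1.83 and -0.67 in wild type. Among the 29 listed genes, 6 went undetected on all 4 arrays, and these included Trarg1, Hcar1 and Gpam.

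Among regulators of fat cell formation, 3 of 9 tested had knockout 1 lowest and knockout 2 highest and 0 had the opposite order. In 3 of the 9 the lower knockout array exceeded the higher wild-type array, against 8.66% of all genes, and the list's medians were 0.37 and 0.15 in knockout 1 and 2. Klf15, a regulator of glucose and lipid genes, was at -3.62 and -2.60 in knockout, against -2.47 and -1.34 in wild type. Zfp423, a factor of fat cell precursors, was at -4.76 in knockout 1, not well above background, and -3.76 in knockout 2, against -4.02 and -4.04 in wild type. Mlxipl, the carbohydrate-responsive regulator also active in gut and liver, was at 4.96 and 4.75 in knockout, against 5.04 and 4.14 in wild type. Other secreted factors and receptors had medians of -0.12 and 0.03, with the members' order in 2 of 14. Retnla, a relative of resistin made by macrophages and adipose stroma, was at -5.59 in knockout 1, not well above background, and -1.89 in knockout 2, against -3.93 and -0.93 in wild type. Rbp4, the retinol carrier of plasma, was at -0.86 and 0.33 in knockout, against 0.91 and 0.60 in wild type. Nrg4, a growth factor secreted by brown fat, was at -1.36 and 0.36 in knockout, against -0.33 and 0.71 in wild type.

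Of the brown fat genes, Ucp1, the uncoupling protein that defines that cell type, was not well above background on any array, nor were Elovl3, Lhx8, Otop1 and Tmem26. Cox8b, a mitochondrial subunit of brown fat and of muscle, was detected throughout and had levels of -3.22 and -1.45 in knockout 1 and 2, against -2.33 and -2.21 in wild type 1 and 2. Dio2, which activates thyroid hormone, was at -4.95 and -3.79 in knockout, against -4.36 and -3.80 in wild type, and was detected in knockout 2 and wild type 2. Cox7a1, another mitochondrial subunit, was at 4.79 and 4.18 in knockout, against 4.99 and 3.69 in wild type, and the transcription factor Zic1 at -3.98 and -4.54, against -4.11 and -3.61. Zic1 lay under the lowest detected level of knockout 2. Of the 7 brown fat genes tested, 3 had the members' order and 0 the opposite.

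Relatives of the members that belong to other cells gave no common order, with 4 of 23 tested in the members' order and 5 in the opposite. Fabp5, the epidermal fatty acid carrier had levels of 2.13 and 4.47 in knockout 1 and 2, against 4.10 and 4.25 in wild type 1 and 2. Car12, a membrane carbonic anhydrase, had -0.75 and 1.31 in knockout, against 0.72 and 1.44 in wild type. Retnlb, the resistin relative of goblet cells, had -5.23 and -3.70 in knockout, against -6.11 and -4.29 in wild type, and was detected in knockout 2 and wild type 2 only. Members of these families can be close in sequence, and cross-binding between their probes was not checked.

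Among markers of other cell types, those of smooth muscle moved along with the members, and most other lists did not. The part of any cell type in the result was not tested. All 8 smooth muscle markers had knockout 1 lowest and knockout 2 highest, with medians of -0.91 and 0.68 against the wild-type mean. Their summed signal, in units of each array's 75th percentile, came to 174 and 523 in knockout 1 and 2, against 310 and 342 in wild type 1 and 2. The same sum over the 9 adipocyte members was 18.0 and 13.7 in knockout, against 14.3 and 16.5 in wild type. That sum was thus highest in knockout 1 and lowest in knockout 2, and Cidec was the brightest member on every array. Myh11, the smooth muscle myosin, was at 1.76 and 3.53 in knockout, against 2.86 and 2.88 in wild type, and Tagln at 4.88 and 6.59, against 5.67 and 5.93.

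Epithelial markers lay the other way. Absorptive epithelium had the members' order in 0 of 8 and the opposite in 4, with medians of 1.02 and -0.26 in knockout 1 and 2. Its summed signal was 857 and 525 in knockout, against 697 and 469 in wild type. Slc5a1, the glucose transporter, was at 2.24 and -0.04 in knockout, against 0.64 and 0.64 in wild type, and Sis, sucrase-isomaltase, at 4.39 and 2.85, against 3.23 and 2.52. Secretory epithelium had 0 of 7 in the members' order, medians of 0.71 and -0.00, and a summed signal of 669 and 340 in knockout, against 422 and 363 in wild type. There Muc2 was at 3.75 and 2.13 in knockout, against 2.89 and 2.59 in wild type, and Zg16 at 8.22 and 6.78, against 7.48 and 7.15.

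Cells that accompany fat in the mesentery were measured as well. Adipose stroma and preadipocyte markers had the members' order in 4 of 9 and medians of -0.78 and 0.33. In 3 of the 9 both knockout arrays lay below both wild-type arrays, against 6.08% of all genes. The summed signal of the list was 21.5 and 36.9 in knockout, against 21.9 and 36.7 in wild type. Pi16, a marker of fibroblasts around vessels, was at -3.76 and 0.08 in knockout, against -1.77 and -0.34 in wild type, and Mfap5 at -3.08 and -1.06, against -2.46 and -0.69. Mesothelium, the cell layer that covers gut and mesentery, had 2 tested markers of 8 listed. Msln was at -3.08 and -0.68 in knockout, against -1.48 and -1.28 in wild type, and Upk1b at -3.66 and -2.80, against -2.81 and -2.22. Wt1, Upk3b, Lrrn4, Gpm6a and Bnc1 went undetected throughout, and the summed mesothelial signal was 0.266 and 0.932 in knockout, against 0.606 and 0.712 in wild type.

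Skeletal muscle, a source of Car3, had the members' order in 1 of 4 tested markers, and Myh1, Myh4 and Actn3 went undetected throughout. Its summed signal was 1.31 and 2.12 in knockout, against 1.59 and 2.36 in wild type. Ckm was at -2.85 and -1.54 in knockout, against -2.15 and -2.40 in wild type, and Myl1 at -2.48 and -1.45, against -1.32 and -1.41. Liver markers had another order, with a summed signal of 0.745 and 3.14 in knockout, against 11.2 and 2.40 in wild type, and Fga was not well above background on any array. Alb was at -5.56 and -2.60 in knockout, against 1.33 and -5.50 in wild type, and Ahsg at -6.35 and -2.78, against -0.03 and -6.23. Both genes lay under the lowest detected level in knockout 1 and in wild type 2, so the order of those arrays was not measured.

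Endothelial and macrophage cells can also express Fabp4. Endothelium had medians of -0.28 and -0.13 and a summed signal of 16.0 and 22.7 in knockout, against 18.0 and 21.2 in wild type, with the members' order in 2 of 7. The sum was thus lowest in knockout 1 and highest in knockout 2, and 3 of the 7 genes had both knockout arrays below both wild-type arrays, against 6.08% of all genes. Cdh5 was at -1.98 and -2.66 in knockout, against -2.34 and -1.96 in wild type, and Esam at -1.30 and -1.06, against -1.01 and -0.46. Macrophages had medians of -0.00 and -0.30 and a summed signal of 7.96 and 6.10 in knockout, against 7.56 and 7.06 in wild type, with the members' order in 0 of 7 and both knockout arrays below both wild-type arrays in 2 of 7. Cd68 was at -1.13 and -1.62 in knockout, against -0.85 and -1.17 in wild type, Lyz2 at -2.30 and -2.50, against -2.30 and -1.64, and Cd163 was not well above background on any array. Markers of B cells and lymph node summed to 0.290 and 0.244 in knockout, against 0.313 and 0.287 in wild type. Ms4a1 and Pax5 went undetected throughout, Cd79a was at -4.42 and -4.05 in knockout, against -3.36 and -3.80 in wild type, and Cr2 at -3.79 and -5.62, against -4.46 and -4.36. Cd79a and Cr2 lay under the lowest detected level of knockout 2, and Cr2 also under that of wild type 1. Exocrine pancreas summed to 0.582 and 0.983 in knockout, against 0.382 and 0.636 in wild type, with Cela2a, Cpa1, Cpb1, Pnlip and Prss2 undetected throughout. Cela1 was at -3.29 and -0.88 in knockout, against -2.90 and -1.46 in wild type, and Cel at -1.88 and -3.33, against -3.37 and -3.26.

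**Figure D4:**
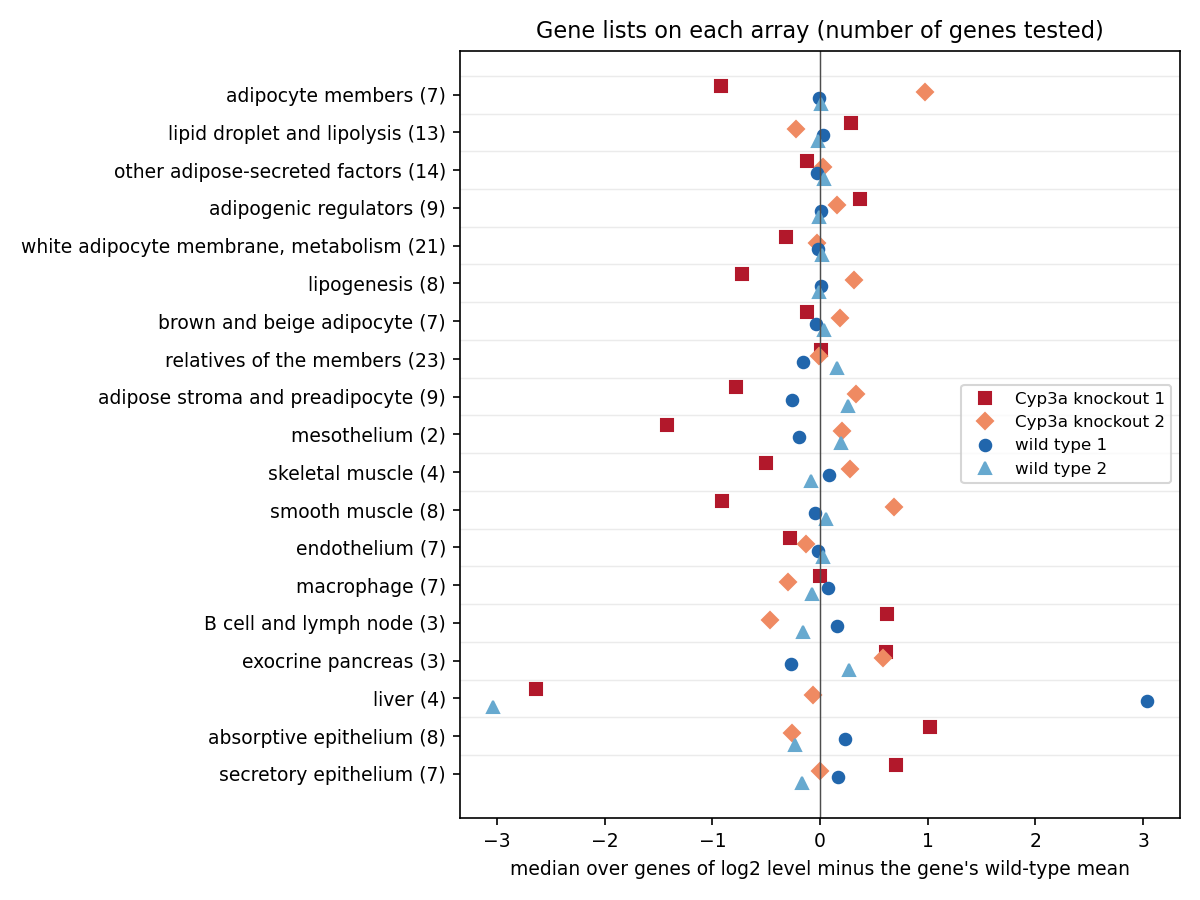
Median over the tested genes of each list of the log2 level minus that gene's wild-type mean (horizontal axis), for each of the 4 arrays (points), with the number of genes in brackets. The adipocyte genes lie at -0.92 in knockout 1 and 0.98 in knockout 2, smooth muscle at -0.91 and 0.68, and absorptive epithelium at 1.02 and -0.26.

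The label of the group was checked against its own markers. Adipoq was detected on 2 of 4 arrays, Plin1 and Lep on 0, and Cfd on 3, while Retn, Plin4, Cidec, Fabp4 and Car3 were detected on 4 by the brightest probe. The defining fat cell genes Plin1 and Lep were therefore not detected in any sample, and the name of the group rests on the other members. Of those, Fabp4, Car3 and Cidec are also active in other cells, and Cidec, the brightest, ran in the opposite order on both probes. Whether fat cells were the source of these signals was not tested.

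The genes whose pattern was most like that of the members were found by the root mean square distance, over the 4 arrays, between each gene's deviations from its own mean and the members' median deviations. The members' median deviations were -0.90 and 1.18 in knockout 1 and 2, against 0.15 and 0.08 in wild type 1 and 2. The 8 nearest genes were Scx, Car11, Psors1c2, Adig, Cox8b, Ddx25, Sema5b and Mchr1, at distances of 0.16 to 0.19. Psors1c2, Sema5b and Mchr1 were well above background on 2 arrays and Adig on 3, so their patterns include undetected values. Scx, a transcription factor of tendon, had levels of -2.78 and -0.91 in knockout, against -1.71 and -1.82 in wild type. Car11, a carbonic anhydrase-related protein, had -3.99 and -1.71 in knockout, against -2.65 and -2.85 in wild type. Adig and Cox8b are the fat and mitochondrial genes given above. Among the members themselves, Plin4 was nearest at 0.21, Cfd lay farthest at 1.77, and Cidec lay at 1.28. With 4 arrays and 14392 genes, near matches of this kind are a description and carry no p-value.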

How the data were processed

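RNA of small intestine from Cyp3a knockout and wild-type mice (2 arrays each, grouped by the labels) was read on 1-colour arrays with Agilent Feature Extraction 11.5.1.1, per the submitters' processing notes. The deposited intensity is, per the file headers, background-subtracted and detrended, and not scaled between arrays. The authors' deposited log2 table matched log2 processed signal after subtraction of each array's 75th percentile and of every probe's median (correlation 1.00 over 39408 probes, column medians -0.11 and 0.12 in knockout and 0.05 and -0.10 in wild type). It therefore keeps no levels.

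Control and outlier spots (91 to 129 per array) were left out, repeat spots were averaged on the log2 scale, and each array's 75th percentile was subtracted. Of 39429 probes, 28025 matched 1 symbol in the RefSeq table of GRCm38.p6, 0 matched several and 11404 none. The 11 probes without a usable spot on some array were dropped. Probes well above background on at least 2 of 4 arrays were kept, and the brightest per symbol gave 14392 genes. Knockout and wild type were set against each other by lmFit and eBayes, trend included (limma 3.58.1, R 4.3.3), adjusted by Benjamini-Hochberg at 0.05. The fit was tested on simulated data. Slide could not be fitted as a term with only 4 arrays, so values within the shared slide are given.

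The members and lists were chosen with earlier results of these data known. Genes are named by rule: all members, up to 4 genes of widest range per list (2 for markers of other cells), the 8 nearest in pattern, and the Cyp3a cluster. Some listed genes that went undetected are also named, and some genes the rule or lists hold are not reported here. Alternatives were another background correction (normexp), other scalings, filters, probe rules and variance models, the authors' table, a replicate block and each array left out. The files hold no mean spot signal, so normexp used median spot and background intensity.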

Additional observations from a re-analysis of the deposited data

How the results depend on the processing

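Under each setting that used all 4 arrays limma called 0 of the members tested, with 0 at an unadjusted p under 0.05. These were 7 members, except 5 when probes had to be detected on all arrays, which drops Adipoq and Cfd, and 9 without a background filter. Fits with 1 array left out keep a lone array in 1 genotype, so only sizes are given for the members. The median difference of the members (-0.16) lay between -0.92 and 0.98 when 1 array was left out, where its sign followed the knockout array kept. Single members then ranged from -2.16 to 2.07 (Adipoq), -0.92 to 0.74 (Plin4), -4.41 to 2.44 (Cfd), -0.66 to 1.60 (Retn), -0.54 to 0.23 (Fabp4), -0.96 to 0.52 (Cidec) and -1.80 to 0.98 (Car3). Adipoq, at -0.04, turned to 0.79 after normexp, 0.018 after median scaling and 0.090 after quantile normalization, and Car3, at -0.41, turned to 0.040 after normexp. Cfd, at -0.99, stood at -0.06 after normexp. Adipoq and Cfd, both undetected in knockout 1, had the same level of -2.50 on that array after normexp. The cause of these shifts was not tested. Knockout 1 lowest and knockout 2 highest was found in 6 of 7 members, against 16.6% of all genes. After normexp it was found in 4 of 7, against 19.3% of all genes, an alternative count chosen after seeing the data. Plin4 and Fabp4 lost that order after normexp, where Plin4 was highest in wild type 1 and Fabp4 lowest in knockout 2. Over all genes limma called 6, against 13 after normexp and 0 when probes had to be detected on all arrays, which drops the Cyp3a genes (41 at an unadjusted p under 0.05). Whether the replicate numbers pair the samples is not known. The deviations of knockout 1 and wild type 1 correlated at 0.05, which alone cannot exclude pairing. A limma fit with the replicate number as a block called 32 genes and 0 members. Leaving out 1 array gave 0 to 430 genes: limma called 12 without knockout 1, 430 without knockout 2, and 0 without wild type 1 or wild type 2 (47 and 57 at an unadjusted p under 0.05). Signals of Lep and Plin1 lie under the detection limit, which the array's brightness sets. So do those of Adipoq in knockout 1 and wild type 1, and of Cfd and the second Retn probe in knockout 1.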
